A study of Homo sapiens with 18 samples.

Results

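The anoctamins, also called the TMEM16 proteins, are a family of membrane proteins encoded in people by 10 genes, ANO1 to ANO10. All 10 were chosen by name from the 58721 gene identifiers of the deposited count table, after ANO2 had drawn attention by its large difference between TADA2B knockout cells and control cells without SOX10 overexpression. That comparison chose the family, so its values are given as a description, with no p-value. RNA was sequenced from A375, an established human melanoma cell line, in 6 groups of 3 libraries. The groups were TADA2B knockout with guide 1 plus SOX10 overexpression, TADA2B knockout with guide 2 plus SOX10 overexpression, TADA2B knockout with guide 1, TADA2B knockout with guide 2, control cells plus SOX10 overexpression, and control cells alone. The control cells carried a guide against GFP, a gene that human cells lack, and are labelled wild type. TADA2B is a subunit of SAGA, a coactivator complex that modifies histones, and SOX10 is a transcription factor that specifies melanocytes and glia from neural crest cells. Whether the lines were clones or pools, how SOX10 was expressed and when cells were harvested is not given in the sources used here.

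Anoctamins split by function. ANO1 and ANO2 are chloride channels that open when calcium rises inside the cell. ANO1 drives fluid secretion in epithelia and pacing in gut interstitial cells, and lies in a chromosome 11 region that is amplified in several cancers. ANO2 carries the chloride current of olfactory cilia and is also found at photoreceptor terminals. ANO6 is a calcium-activated scramblase that moves phosphatidylserine to the cell surface, for instance in activated platelets, and ANO3, ANO4, ANO5, ANO7 and ANO9 have been linked to lipid scrambling or ion transport with less certainty. ANO8 tethers the endoplasmic reticulum to the plasma membrane, and ANO10 is an intracellular member whose loss causes a cerebellar ataxia.

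The genes are scattered over 5 chromosomes in hg38. ANO2 spans chr12:5531869-5946232 on the minus strand, ANO1 spans chr11:70078302-70189528 on the plus strand, and ANO4 spans chr12:100717526-101128641 on the plus strand, per GENCODE 29. The bases upstream of the start sites of these 3 genes are shown because ANO2 differed one way between knockout and control and ANO1 and ANO4 the other way. Each line gives the 250 bases before a RefSeq start site (GRCh38.p14), 5′ to 3′ on the gene's own strand, with every CG dinucleotide in capitals. The ANO1 window lies upstream of the GENCODE 29 span of that gene, and the second ANO2 window ends where that gene's span begins. ANO4 has 2 windows, of which 1 is shown; the other, chr12:100794526-100794775, is not, because 180 of its bases lie on an annotated exon of the gene.
ANO2, chr12:5945260-5945509, minus strand: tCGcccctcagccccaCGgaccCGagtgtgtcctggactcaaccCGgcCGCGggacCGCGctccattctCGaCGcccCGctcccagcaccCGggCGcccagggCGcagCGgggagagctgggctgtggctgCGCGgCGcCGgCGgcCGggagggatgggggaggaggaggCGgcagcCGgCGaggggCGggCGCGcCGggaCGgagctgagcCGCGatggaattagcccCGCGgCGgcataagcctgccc
ANO2, chr12:5946233-5946482, minus strand: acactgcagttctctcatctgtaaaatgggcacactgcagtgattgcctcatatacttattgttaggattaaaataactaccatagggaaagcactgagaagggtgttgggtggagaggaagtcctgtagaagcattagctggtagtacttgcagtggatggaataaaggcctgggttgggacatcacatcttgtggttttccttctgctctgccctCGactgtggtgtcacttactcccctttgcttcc
ANO1, chr11:69985657-69985906, plus strand: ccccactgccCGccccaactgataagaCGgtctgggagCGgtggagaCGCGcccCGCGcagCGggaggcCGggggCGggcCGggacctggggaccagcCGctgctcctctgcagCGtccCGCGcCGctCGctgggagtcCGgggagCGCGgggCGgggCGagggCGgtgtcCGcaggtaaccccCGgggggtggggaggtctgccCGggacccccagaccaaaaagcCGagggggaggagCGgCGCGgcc
ANO4, chr12:100901396-100901645, plus strand: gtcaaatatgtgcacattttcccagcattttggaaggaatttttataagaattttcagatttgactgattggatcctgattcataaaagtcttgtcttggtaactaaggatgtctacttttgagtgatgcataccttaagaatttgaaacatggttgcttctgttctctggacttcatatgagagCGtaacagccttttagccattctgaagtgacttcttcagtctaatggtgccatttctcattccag

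The first ANO2 window was 77.6% G or C and held 34 CG dinucleotides, and the ANO1 window was 78.0% G or C and held 30. Both were far above the medians of 58.0% and 11 CG dinucleotides over the 35116 human windows of the same length. The second ANO2 window, 46.4% G or C, and the shown ANO4 window, 36.8% G or C, held 1 CG dinucleotide each. The other ANO4 window was 58.4% G or C and held 7. Thus ANO2 had both a CG-rich and a CG-poor annotated start. The ANO1 window ends at base 69985906, well before base 70078302, where the GENCODE 29 span of the gene begins. The 10 GENCODE 29 start sites of ANO1 have no window here. Any bearing of CG content on the direction of change was not tested. On either strand, neither ANO2 window and not the ANO1 window held the SOX core ACAANG, the CACGTG box bound by MITF, the AP-1 site TGANTCA, the TEAD site GGAATG or the TATA box TATAAA. These letters were present in 30.9%, 6.34%, 6.57%, 11.9% and 10.7% of all windows, in that order. The shown ANO4 window held an AP-1 match 174 bases, a TEAD match 8 bases and a TATA match 209 bases before the start, and the other ANO4 window held none of the 5. In all, 8 of the 10 genes matched the RefSeq promoter table, with 13 windows. A letter match is no measured binding.

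Depth was 58573910 to 79874237 counts per library, and 3 counts corresponded to 0.03591 to 0.04931 CPM. CPM is the usual scaling of counts to a common library size. Levels are CPM on effective library sizes, as mean ± SD of 3 libraries. TADA2B RNA was present in every library: it averaged 25.3, 26.9 and 31.0 CPM in guide 1 knockout, guide 2 knockout and control cells with SOX10, and 26.0, 28.8 and 32.5 CPM in the same cells without. SOX10 RNA averaged 291, 246 and 452 CPM with overexpression in guide 1 knockout, guide 2 knockout and control cells, and 83.6, 43.4 and 354 CPM without it. The labels do not say whether the 3 libraries of a group came from separate cultures, so p-values measure the spread between these libraries, which may be technical.

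All 10 genes passed the filter on low counts, ANO2 and ANO9 through the knockout groups alone. Per kilobase of annotated exon, ANO6 was the most abundant anoctamin in every group, at 15.9, 15.6 and 15.8 CPM per kb in guide 1 knockout, guide 2 knockout and control cells. It made up 58.4%, 59.2% and 53.4% of the summed anoctamin level in these groups. ANO10 came next in every group, at 4.92 to 5.7 CPM per kb. ANO1 was the third in control cells at 4.91 ± 0.196 CPM per kb and 16.6% of the sum, while it held 6.55% and 4.75% in guide 1 and guide 2 knockout cells.

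ANO2 was 5th of 10 in guide 1 knockout cells (1.03 ± 0.0701 CPM per kb, 3.76% of the sum) and 4th in guide 2 knockout cells (1.27 ± 0.0591 CPM per kb, 4.81%). It was 9th in control cells (0.00641 ± 0.00365 CPM per kb, 0.0217%). Neighbours whose library ranges overlapped were ANO2 and ANO3 in guide 1 knockout cells, ANO2 and ANO1 in guide 2 knockout cells, ANO7 and ANO5 in guide 2 knockout cells with SOX10, and ANO2 and ANO9 in both control groups. All other neighbours in the order were separated beyond the range of their libraries. With SOX10, ANO3 was the third in all 3 groups, at 2.24, 2.28 and 3.1 CPM per kb in guide 1 knockout, guide 2 knockout and control cells. The summed anoctamin level lay between 26.3 and 31.4 CPM per kb in the 6 groups. Exon length is the union of all annotated exons, and the transcript forms actually made are not known from gene counts.

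**Figure D1:**
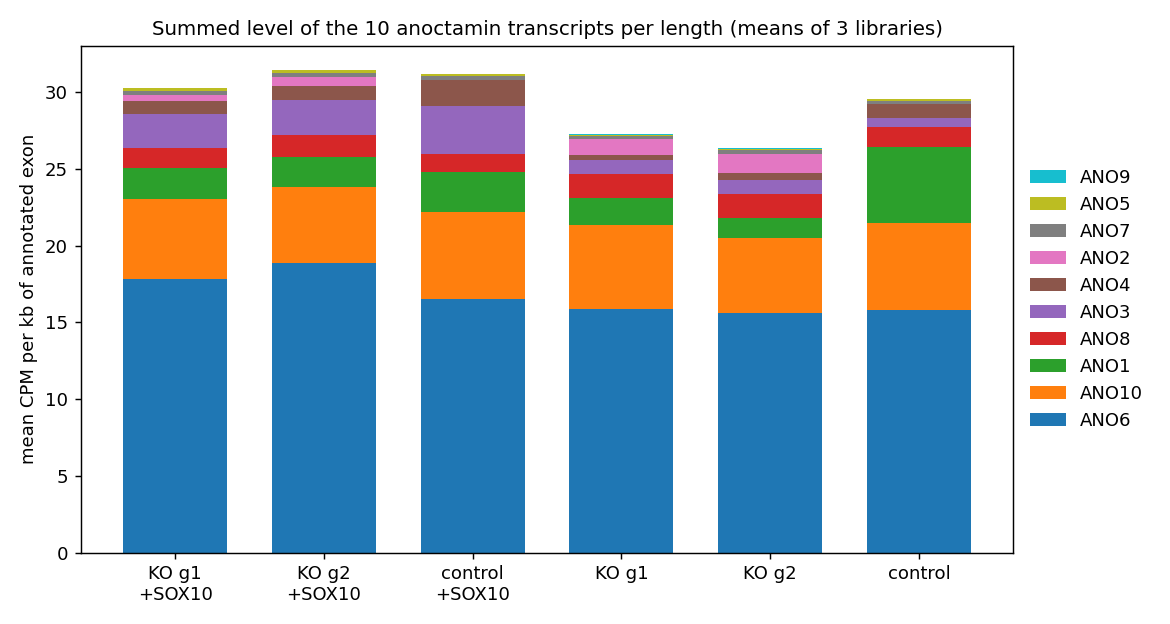
Stacked mean levels (CPM per kb of annotated exon, y axis) of the 10 anoctamin genes in the 6 groups (x axis; g1 and g2, guides 1 and 2). ANO6 is the largest block everywhere, 52.8% to 60.1% of the sum; the ANO2 block is visible in knockout groups, and the ANO1 block is tallest in control cells.

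ANO2, the olfactory chloride channel gene, was near 0 in control cells and clearly present in knockout cells. Among cells with SOX10 overexpression, ANO2 had 190, 199 and 161 counts with guide 1 and 303, 246 and 233 counts with guide 2, against 6, 1 and 0 counts in control cells. In CPM these were 2.46, 2.59 and 2.17 with guide 1, 3.69, 3.36 and 3.83 with guide 2, and 0.0819, 0.0134 and 0 in control cells. Every knockout library was far above every control library, and 2 of the 3 control libraries were under the level of 3 counts. The fitted log2 fold change was 6.44 (SE 0.26), given as a description because ANO2 passed the filter through the knockout groups alone. Over summed counts the knockout to control ratio was 92.4 (95% interval 44.7 to 230.0, exact, counting error only), from 1332 and 7 counts. Without control replicate 1, which held 6 of the 7 counts, the fitted log2 fold change was 8.41.

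Without SOX10 overexpression, ANO2 had 429, 493 and 515 counts with guide 1 and 635, 530 and 692 counts with guide 2, against 1, 4 and 3 counts in control cells. The levels were 6.42 ± 0.438 CPM with guide 1, 7.91 ± 0.37 CPM with guide 2 and 0.0401 ± 0.0228 CPM in control cells. The ratio over summed counts was 179.0 (95% interval 90.9 to 416.0), from 3294 and 8 counts, and the fitted log2 fold change was 7.41 (SE 0.23), or 7.03 without control replicate 1 and 7.80 without control replicate 2. Per GENCODE 29, ANO2 has no exon base in common with another gene. In RNA from whole cultures, more cells with ANO2 RNA and more ANO2 RNA per cell cannot be told apart.

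**Figure D2:**
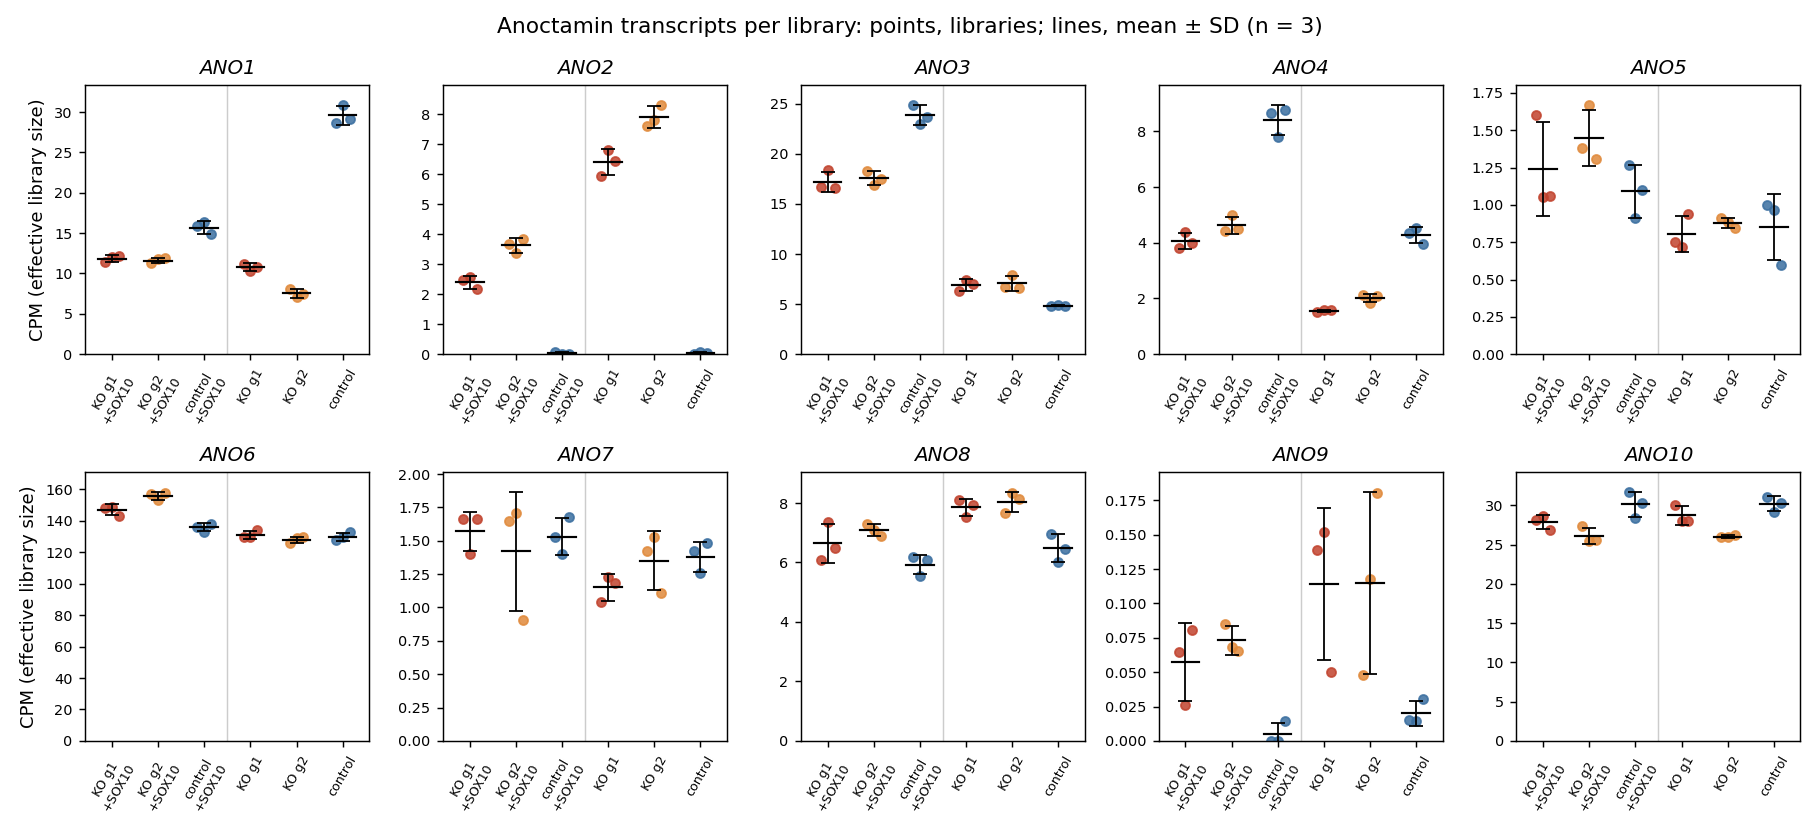
CPM per library (y axes, linear, from 0, each gene on its own scale) of the 10 anoctamin genes in the 6 groups (x axes; g1 and g2, guides 1 and 2); points are libraries and bars are mean ± SD, n = 3. ANO2 lies at 2.17 to 3.83 CPM in knockout libraries with SOX10 and at 5.96 to 8.32 CPM in those without, and at 0.0819 CPM or less in all 6 control libraries.

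The log2 level of ANO2 was also set against that of each other anoctamin in the same library, in SOX10-overexpressing cells. The log2 ratio of ANO2 to the other gene was higher in knockout than in control libraries by 4.40 against ANO9 at the least and by 6.86 against ANO4 at the most. For ANO6, the log2 ratio was -5.67 ± 0.29 in knockout libraries (SD, n = 6) and -11.42 ± 1.03 in control libraries (SD, n = 3). For ANO1 it was -1.98 ± 0.36 in knockout libraries and -8.31 ± 1.00 in control libraries. None of the 9 ratios overlapped between groups. All 9 share the ANO2 value and restate its difference, so they are a description.

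In SOX10-overexpressing cells, 8 of the 10 genes were past the threshold for knockout against control (4 higher, 4 lower; adjusted p under 0.05, edgeR quasi-likelihood test, Benjamini-Hochberg over 21060 genes), beside 55.0% of all genes tested (28.2% higher, 26.7% lower). ANO2 and ANO9 are among the 4 higher, and since both passed the filter through the knockout groups alone, the count is a description. Of the 8 others, ANO6 and ANO8 rose and ANO1, ANO3, ANO4 and ANO10 fell. Without SOX10, 7 of the 10 were past the same threshold, 4 higher (ANO2, ANO3, ANO8 and ANO9) and 3 lower (ANO1, ANO4 and ANO10), beside 58.1% of all genes (28.6% higher, 29.5% lower). That second count belongs to the comparison that chose the family. Both counts were 7 to 8 with any 1 library left out.

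ANO1, the other chloride channel of the family, ran against ANO2. With SOX10 it had 11.4, 12.0 and 12.2 CPM with guide 1 and 11.3, 11.8 and 11.9 CPM with guide 2, against 15.9, 16.4 and 14.9 CPM in control cells. All knockout libraries were below all control libraries. ANO1 fell by 0.42 (log2, SE 0.052, adjusted p = 4.49e-09, edgeR). Without SOX10 the gap was wider: 11.2, 10.3 and 10.8 CPM with guide 1 and 8.07, 7.06 and 7.46 CPM with guide 2, against 28.6, 30.9 and 29.2 CPM in control cells, a log2 fold change of -1.71 (SE 0.050).

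ANO4 was also lower in knockout cells, both with and without SOX10 overexpression. It had 3.80, 4.37 and 3.99 CPM with guide 1 and 4.43, 4.99 and 4.49 CPM with guide 2, against 8.66, 7.79 and 8.78 CPM in control cells, all with SOX10. The groups did not overlap, and ANO4 fell by 0.96 (log2, SE 0.079, adjusted p = 1.09e-13, edgeR). Without SOX10 it averaged 1.55 ± 0.0465 CPM with guide 1, 2.02 ± 0.156 CPM with guide 2 and 4.28 ± 0.284 CPM in control cells, a log2 fold change of -1.27 (SE 0.092).

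ANO3, a gene in which variants cause dystonia, differed in opposite directions with and without SOX10 overexpression. With SOX10 it had 16.7, 18.4 and 16.6 CPM with guide 1 and 18.3, 16.9 and 17.5 CPM with guide 2, against 24.9, 23.0 and 23.7 CPM in control cells. It fell by 0.46 (log2, SE 0.055, adjusted p = 2.40e-09, edgeR), with no overlap between groups. Without SOX10 it averaged 6.91 ± 0.589 CPM with guide 1, 7.08 ± 0.725 CPM with guide 2 and 4.86 ± 0.0427 CPM in control cells, a log2 fold change of 0.52 (SE 0.071), again with no overlap. ANO3 shares 175 exon bases, 2.273% of its exon length, with MUC15 on the opposite strand, and the strand setting of the counting is not given in the sources used here. MUC15 was lower in knockout cells in both states, at log2 fold changes of -0.90 with SOX10 overexpression and -0.37 without.

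The scramblase gene ANO6 differed by little. With SOX10 it had 148, 149 and 143 CPM with guide 1 and 157, 153 and 158 CPM with guide 2, against 136, 133 and 138 CPM in control cells. These ranges did not overlap, and ANO6 rose by 0.16 (log2, SE 0.024, adjusted p = 4.94e-07, edgeR), a 1.12-fold difference. Without SOX10 it averaged 131 ± 2.25 CPM with guide 1, 128 ± 2.04 CPM with guide 2 and 130 ± 2.57 CPM in control cells, and the ranges overlapped.

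ANO8 and ANO10, the tether and the intracellular member, differed by small amounts. With SOX10, ANO8 averaged 6.64 ± 0.642 CPM with guide 1, 7.10 ± 0.199 CPM with guide 2 and 5.93 ± 0.328 CPM in control cells, and rose by 0.21 (log2, SE 0.073, adjusted p = 0.0124, edgeR). The ranges overlapped, and the call was lost without control replicate 2 (adjusted p = 0.0906) or guide 1 replicate 2 (adjusted p = 0.0536). ANO10 averaged 27.9 ± 0.901 CPM with guide 1, 26.1 ± 1.03 CPM with guide 2 and 30.1 ± 1.63 CPM in control cells. It fell by 0.16 (log2, SE 0.041, adjusted p = 0.00103, edgeR), and its ranges overlapped too. ANO8 shares 79 exon bases with DDA1 and ANO10 shares 170 with ABHD5, both on the opposite strand. The strand setting of the counting is not given, and the part of these overlaps was not tested. Under scaling by library size alone, which moves the median of all genes to 0.163, the ANO10 log2 fold change was -0.02 and was not called (adjusted p = 0.78).

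ANO9 was near the detection limit. With SOX10 it had 5, 2 and 6 counts with guide 1 and 7, 5 and 4 counts with guide 2, against 0, 0 and 1 counts in control cells. Like ANO2, it passed the filter through the knockout groups alone and is described without a test. The ratio over 29 and 1 summed counts was 14.1 with an exact 95% interval of 2.33 to 575.0. Without SOX10 it had 10, 11 and 4 counts with guide 1 and 4, 8 and 15 counts with guide 2, against 1, 1 and 2 counts in control cells, a ratio of 5.66 (95% interval 2.08 to 21.5). Its level in knockout cells without SOX10 was 0.0183 and 0.0186 CPM per kb for the 2 guides, against 1.03 and 1.27 CPM per kb for ANO2.

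ANO5, in which variants cause a muscular dystrophy, and ANO7, best known from prostate, were not called in knockout against control, with or without SOX10 overexpression. With SOX10, ANO5 averaged 1.24 ± 0.315 CPM with guide 1, 1.45 ± 0.188 CPM with guide 2 and 1.09 ± 0.178 CPM in control cells, a log2 fold change of 0.30 (95% interval -0.06 to 0.65, adjusted p = 0.152, edgeR). ANO7 averaged 1.57 ± 0.146 CPM with guide 1, 1.42 ± 0.448 CPM with guide 2 and 1.53 ± 0.14 CPM in control cells, a log2 fold change of -0.03 (adjusted p = 0.899, edgeR). Guide 2 replicate 3 with SOX10, the shallowest library, had 0.904 CPM of ANO7 where the other two of its group had 1.65 and 1.71 CPM.

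**Figure D3:**
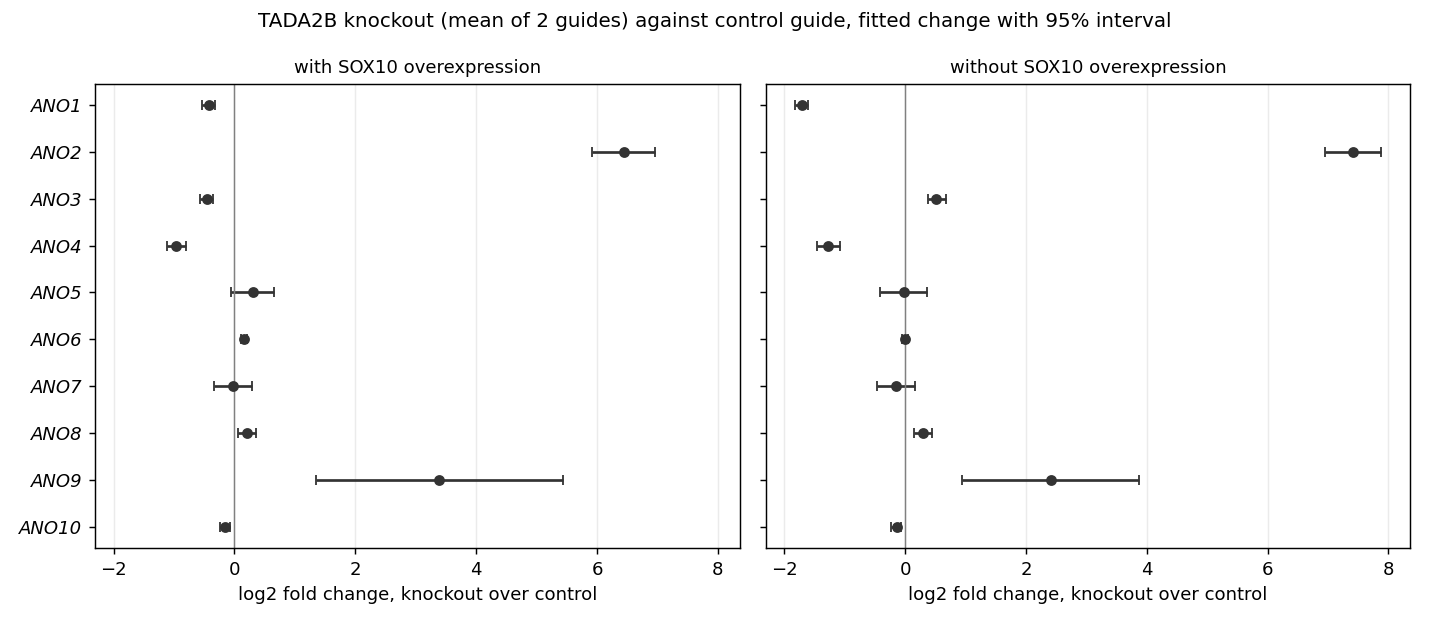
Fitted log2 fold change of TADA2B knockout (mean of both guides) over control (x axis) for each anoctamin gene (y axis), with SOX10 overexpression on the left and without on the right; points are estimates and bars 95% intervals. ANO2 stands at 6.44 and 7.41, ANO9 has the widest bars, ANO1 and ANO4 lie below 0 in both panels, and ANO3 lies below 0 with SOX10 and above 0 without.

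SOX10 overexpression was then set against none, within knockout and within control cells. In knockout cells, 7 of the 10 genes were past the threshold (5 higher, 2 lower), beside 56.2% of all genes (28.1% higher, 28.1% lower). In control cells 3 of 10 were (2 higher, 1 lower), beside 34.4% of all genes (17.3% higher, 17.2% lower). ANO3 and ANO4 rose with SOX10 in both. ANO3 averaged 17.2 ± 1.01 and 17.6 ± 0.736 CPM in guide 1 and guide 2 knockout cells with SOX10, against 6.91 ± 0.589 and 7.08 ± 0.725 CPM without, a log2 fold change of 1.32 (SE 0.050, adjusted p = 6.89e-25, edgeR). In control cells ANO3 averaged 23.9 ± 0.992 CPM with SOX10 and 4.86 ± 0.0427 CPM without, a log2 fold change of 2.30 (SE 0.074, adjusted p = 1.45e-26, edgeR). MUC15, which overlaps ANO3, averaged 5.05 ± 0.573 CPM with SOX10 and 4.89 ± 0.265 CPM without in control cells. ANO4 rose by 1.29 in knockout cells (log2, adjusted p = 3.45e-18, edgeR) and by 0.97 in control cells (adjusted p = 2.89e-11, edgeR).

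ANO1 changed in opposite directions. It rose by 0.38 in knockout cells (log2, SE 0.045, adjusted p = 1.36e-09, edgeR) and fell by 0.91 in control cells (SE 0.058, adjusted p = 1.11e-16, edgeR). In control cells it averaged 15.7 ± 0.802 CPM with SOX10 and 29.6 ± 1.18 CPM without. In knockout cells it averaged 11.8 ± 0.434 CPM (guide 1) and 11.6 ± 0.327 CPM (guide 2) with SOX10, against 10.8 ± 0.472 CPM (guide 1) and 7.53 ± 0.506 CPM (guide 2) without. In guide 1 cells taken alone the ANO1 change was 0.14 and missed the threshold (adjusted p = 0.0715, edgeR), and in guide 2 cells it was 0.63.

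In knockout cells, ANO2 averaged 2.40 ± 0.214 CPM (guide 1) and 3.63 ± 0.24 CPM (guide 2) with SOX10, against 6.42 ± 0.438 CPM (guide 1) and 7.91 ± 0.37 CPM (guide 2) without. The log2 fold change was -1.27 (SE 0.083), given as a description because it uses the libraries that chose ANO2. Its knockout libraries with SOX10 did not overlap those without, and none came down to the control range. In control cells the counts were 7 with SOX10 and 8 without, a ratio of 0.809 (95% interval 0.25 to 2.55), so no difference was detectable at this depth. In knockout cells ANO5 rose by 0.67 (adjusted p = 1.06e-04), ANO6 rose by 0.22 (adjusted p = 9.66e-13) and ANO8 fell by 0.21 (adjusted p = 0.00183), all log2 by edgeR. ANO7, ANO9 and ANO10 were called in neither.

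**Figure D4:**
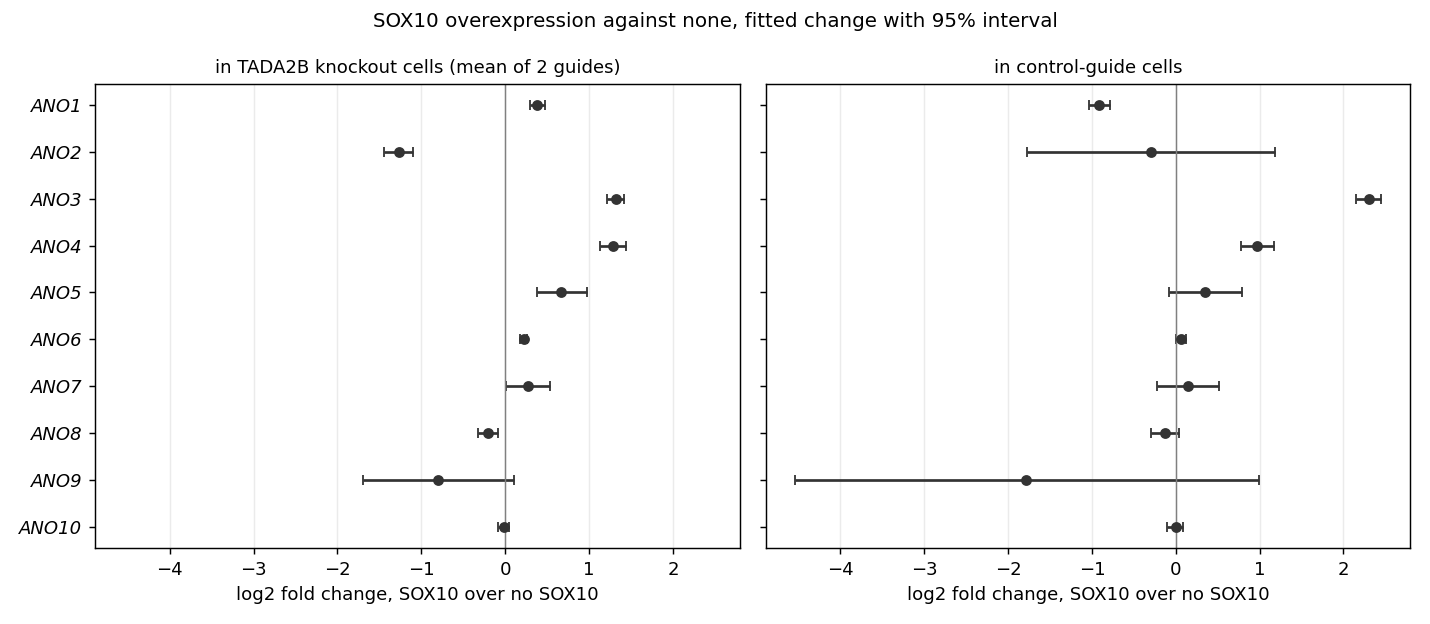
Fitted log2 fold change of SOX10 overexpression over none (x axis) for each anoctamin gene (y axis), in TADA2B knockout cells (left, mean of both guides) and in control cells (right); points are estimates and bars 95% intervals. ANO3 is at 1.32 and 2.30, and ANO1 is at 0.38 in knockout cells and -0.91 in control cells.

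The SOX10 effect in knockout cells minus that in control cells, tested as an interaction, passed for 4 of 10 genes (3 higher, 1 lower), beside 33.3% of all genes (18.1% higher, 15.1% lower). The difference was 1.29 for ANO1 (log2, SE 0.074, adjusted p = 4.68e-18, edgeR), -0.98 for ANO3 (SE 0.090, adjusted p = 7.41e-12, edgeR) and 0.16 for ANO6 (SE 0.034, adjusted p = 2.32e-04, edgeR). For ANO4 it was 0.31 (SE 0.12, adjusted p = 0.0465, edgeR). The ANO4 call was lost in edgeR with RLE scaling (adjusted p = 0.0563), library-size scaling (adjusted p = 0.0561), no filter (adjusted p = 0.139) and the replicate block (adjusted p = 0.0508). The call was also lost with DESeq2 (adjusted p = 0.0553) and with 9 of the 18 libraries when each was left out (adjusted p up to 0.135). SOX10 RNA itself rose unequally with overexpression, by 2.15 in knockout cells and by 0.35 in control cells (log2). Its part in these interaction values was not tested.

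Guide 2 was compared with guide 1 as a check between the knockout lines. Without SOX10, 2 of 10 genes passed (1 higher, 1 lower), beside 8.74% of all genes (2.65% higher, 6.09% lower). With SOX10, 2 of 10 passed, both higher, beside 12.1% of all genes (5.05% higher, 7.01% lower). With SOX10, ANO2 was higher with guide 2 (3.63 ± 0.24 CPM) than with guide 1 (2.40 ± 0.214 CPM), a log2 fold change of 0.59 (SE 0.13, adjusted p = 7.51e-04, edgeR), and the 2 guides did not overlap. Without SOX10 the ANO2 log2 fold change was 0.30 (SE 0.11), again with guide 2 above guide 1 in every library. ANO1 was lower with guide 2 without SOX10, at a log2 fold change of -0.51 (adjusted p = 1.13e-07, edgeR), and was -0.03 with SOX10 (95% interval -0.15 to 0.10). ANO4 was higher with guide 2 without SOX10 by 0.38 (adjusted p = 0.0341, edgeR), a call lost with no filter (adjusted p = 0.067), with only the groups compared (adjusted p = 0.103) and when any of 5 of the 6 knockout libraries was left out. ANO6 was higher with guide 2 with SOX10 by 0.08 (adjusted p = 0.0424, edgeR). That call was lost with RLE scaling (adjusted p = 0.0623), with no filter (adjusted p = 0.319) and with 12 of the 18 libraries when each was left out (adjusted p up to 0.251). SOX10 RNA itself was lower with guide 2, by a log2 fold change of -0.94 without overexpression and -0.24 with it, and its part in these differences was not tested.

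Marker RNAs of cell types moved with the same groups. The summed level of 8 melanocytic markers was 559 to 568 CPM with guide 1, 427 to 445 CPM with guide 2 and 1130 to 1170 CPM in control cells, all with SOX10. Without SOX10 it was 201 to 208 CPM with guide 1, 148 to 156 CPM with guide 2 and 743 to 778 CPM in control cells. SOX10, MITF, S100B and ERBB3 were at 1 CPM or more in every library, and the sum includes SOX10, the overexpressed gene. TYR, MLANA and PMEL were low. TYR was at 0.0537 CPM or less in every library, and group means were 0.791 to 1.16 CPM for MLANA and 0.412 to 1.55 CPM for PMEL. DCT averaged 22.8, 6.59 and 156 CPM in guide 1 knockout, guide 2 knockout and control cells with SOX10. Without SOX10, DCT averaged 0.0566, 0.0793 and 1.01 CPM in the same order. Of all genes tested, 28.2% were higher and 26.7% lower in knockout with SOX10, and 28.6% higher and 29.5% lower without. Of the 7 melanocytic markers tested, 1 was higher and 5 were lower in knockout with SOX10, and 2 were higher and 5 lower without. Those 2 were MITF, at 84.3, 92.1 and 39.7 CPM in guide 1 knockout, guide 2 knockout and control cells without SOX10, and PMEL, at 0.869, 0.795 and 0.412 CPM. The sum of 8 fibroblast markers was 45.9 to 46.6 CPM with guide 1, 51.1 to 53.0 CPM with guide 2 and 12.8 to 14.0 CPM in control cells with SOX10, and that of 8 epithelial markers 314 to 344, 363 to 374 and 166 to 168 CPM in the same order. Without SOX10, the fibroblast sums were 32.6 to 36.2 CPM with guide 1, 36.1 to 39.6 CPM with guide 2 and 5.04 to 6.76 CPM in control cells. LUM made up most of the fibroblast sum in knockout cells with SOX10, at 37.3 CPM with guide 1, 43.3 CPM with guide 2 and 5.37 CPM in control cells. Of 7 fibroblast markers tested with SOX10, 4 were higher and 2 lower; POSTN averaged 1.77, 1.36 and 2.84 CPM and PDGFRA 1.79, 1.53 and 3.56 CPM in guide 1 knockout, guide 2 knockout and control cells. Of 8 markers of olfactory neurons and photoreceptors, where ANO2 is best known, CNGA2 was at 0 in every library, while GNAL and ADCY3 were at 1 CPM or more. That list summed to 63.1 to 67.6 CPM with guide 1, 65.0 to 66.8 CPM with guide 2 and 51.4 to 54.5 CPM in control cells with SOX10. The 5 endothelial markers summed to 29.8 to 31.7 CPM with guide 1, 36.2 to 36.4 CPM with guide 2 and 10.9 to 11.5 CPM in control cells with SOX10, most of it KDR. Without SOX10 the endothelial sum was lower in knockout. It was 2.29 to 2.42 CPM with guide 1, 2.3 to 2.69 CPM with guide 2 and 3.7 to 4.74 CPM in control cells. Of the 5 endothelial markers tested there, 2 were higher and 1 lower in knockout. KDR made up most of the control sum, at 0.395, 0.254 and 3.26 CPM in guide 1 knockout, guide 2 knockout and control cells. CDH5 averaged 0.905, 1.16 and 0.324 CPM and PECAM1 0.565, 0.475 and 0.241 CPM in the same order. The 5 leukocyte markers summed to 18.3 to 19.4 CPM with guide 1, 19.9 to 21.7 CPM with guide 2 and 5.29 to 6.11 CPM in control cells with SOX10, nearly all of it LYZ. The part of these marker lists in the anoctamin differences was not tested.

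Genes around ANO2 differed in both directions. Of 26 annotated genes within 500 kb, 9 were tested, all on the side of higher coordinates. In SOX10-overexpressing cells 3 of these 9 were higher and 2 lower in knockout, beside 28.2% higher and 26.7% lower of all genes tested. VWF, the gene of von Willebrand factor, lies 2642 bases from ANO2 and had 0.838 ± 0.248 CPM with guide 1, 1.07 ± 0.166 CPM with guide 2 and 0.138 ± 0.0819 CPM in control cells with SOX10. It rose by 2.76 (log2, SE 0.34, adjusted p = 4.75e-09, edgeR). Without SOX10, where ANO2 was most abundant, VWF averaged 0.156 ± 0.0422, 0.165 ± 0.107 and 0.12 ± 0.0503 CPM in guide 1 knockout, guide 2 knockout and control cells, and was not called (log2 fold change 0.43, adjusted p = 0.40, edgeR). SCNN1A, a sodium channel subunit gene 400611 bases away, rose by 2.84 (log2, adjusted p = 7.29e-10, edgeR) with SOX10, and CD9, between them, fell by 0.26 (adjusted p = 3.33e-10, edgeR). Like ANO2, SCNN1A was also higher in knockout cells without SOX10 (log2 fold change 2.34, adjusted p = 6.06e-11, edgeR) and, within knockout cells, lower with SOX10 than without (log2 fold change -1.15, adjusted p = 8.94e-08, edgeR).

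The genes whose log2 CPM followed ANO2 most closely over the 18 libraries were HBEGF (Pearson r = 0.9925), PTPRE (0.9906), PEAR1 (0.9895), TMEM184A (0.9887) and SERPINB1 (0.9886), out of 21059 genes. These are descriptions over libraries that fall into groups. PTPRE, a receptor-type tyrosine phosphatase gene, averaged 12.5, 17.9 and 1.61 CPM in guide 1 knockout, guide 2 knockout and control cells with SOX10, and 24.4, 28.0 and 1.80 CPM in the same groups without. HBEGF, which encodes a ligand of the EGF receptor, averaged 30.7, 37.6 and 12.5 CPM with SOX10 and 39.1, 46.4 and 12.8 CPM without, in the same order. In knockout cells the means of all 5 were higher with guide 2 than with guide 1, and lower with SOX10 than without, as were those of ANO2. Choosing the 5 by correlation over these same libraries favours such a likeness, so it is no separate result.

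Genes with related functions were counted in the same comparison, knockout against control with SOX10. For every list that follows, the share called over all genes tested was 55.0% (28.2% higher, 26.7% lower). Among the TMC and TMEM63 genes, whose proteins belong to the same superfamily, 5 of 9 tested rose and 1 fell (median log2 fold change 1.07, against 0.0195 over all genes). TMC7 rose by 1.15 (adjusted p = 5.87e-19), TMC6 rose by 0.88 (adjusted p = 6.12e-12) and TMEM63B fell by 0.13 (adjusted p = 0.0296), all log2 by edgeR. Among other chloride channel genes, 7 of 18 rose and 7 fell (median -0.09). CLCN4, an endosomal chloride and proton exchanger, rose by 1.25 (adjusted p = 1.18e-20), LRRC8C, a subunit of the volume-regulated channel, rose by 0.60 (adjusted p = 2.09e-15), its relative LRRC8D fell by 0.43 (adjusted p = 1.61e-16) and TTYH2 fell by 0.90 (adjusted p = 6.15e-08), by the same test.

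Among scramblase and flippase genes, which move lipids between membrane leaflets, 4 of 15 rose and 5 fell (median 0.19). PLSCR4 rose by 1.04 (adjusted p = 1.88e-12, edgeR) and PLSCR1 by 0.54 (adjusted p = 1.06e-11, edgeR). The flippase gene ATP8A2 fell by 0.70 (adjusted p = 1.45e-08, edgeR). Of 12 tested genes that supply calcium or set the chloride gradient, 4 rose and 4 fell (median 0.03). The chloride importer gene SLC12A2 fell by 0.38 (adjusted p = 6.22e-16, edgeR), with 155 ± 4.53 CPM with guide 1, 152 ± 6.99 CPM with guide 2 and 200 ± 2.62 CPM in control cells. The chloride exporter gene SLC12A7 rose by 0.42 (adjusted p = 5.60e-11, edgeR). Without SOX10 it differed in the opposite direction, at a log2 fold change of -0.83. It averaged 15.8, 15.7 and 27.9 CPM there in guide 1 knockout, guide 2 knockout and control cells. The calcium release channel gene ITPR1 fell by 0.47 (adjusted p = 5.41e-14, edgeR).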

How the data were processed

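RNA from A375 cells was extracted on RNeasy Plus columns and made into libraries with the KAPA Stranded mRNA-Seq kit, per the labels' protocols. The authors deposited 1 table of raw counts per gene, without normalization. The submitters' processing notes name HISAT2, HTSeq and hg38; tool versions, gene annotation and strandedness of counting: not given in the sources used here. The members and all gene lists were chosen with earlier results of these data known. Symbols came by identifier from a list of gene names, or from GENCODE 29 where that list had none. Exon lengths came from GENCODE 29 by identifier, and promoter sequences from RefSeq (GRCh38.p14).

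The tests ran under edgeR 4.0.16 (R 4.3.3). Genes kept by filterByExpr (21060) entered 1 robust quasi-likelihood fit with 6 group means, TMM factors and 12 residual degrees of freedom. A call is a Benjamini-Hochberg adjusted p under 0.05. The script was tested on simulated data. Likeness to ANO2 and ratios used log2 CPM with a prior count of 2. Knockout is the mean of both guides. All 10 members were named, and of each list, the 2 tested genes per direction with the smallest adjusted p, a few of which are not reported here; neighbours of ANO2 and the 5 genes most like it were also named by rule. The neighbours and like genes whose levels are printed were picked after their values were seen. Alternatives were RLE and library-size scaling, other filters, a replicate block, fits on only the groups compared, DESeq2 1.42.0 and leaving out each library. Libraries of a group differed beyond sampling noise (chi-square per degree of freedom 3.54 to 11.8), and mitochondrial counts were 0.7324% to 1.455%. Intervals of count ratios and floors cover counting error only; intervals of fitted changes rest on the spread between libraries.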

Additional observations from a re-analysis of the deposited data

Results flagged for a closer look

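For 4 genes the effect of SOX10 overexpression differed between knockout and control cells by the interaction test: ANO1 by 1.29, ANO3 by -0.98, ANO4 by 0.31 and ANO6 by 0.16, each as the log2 change in knockout cells minus that in control cells. The ANO4 call was lost with RLE scaling, library-size scaling, no filter, the replicate block and DESeq2. It was also lost with 9 of the 18 libraries when each was left out. SOX10 RNA itself rose by 2.15 in knockout cells and by 0.35 in control cells (log2), and its part was not tested.

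For 4 values the 2 knockout guides differed from each other. Without SOX10, guide 2 against guide 1 gave a log2 fold change of -0.51 for ANO1 and 0.38 for ANO4. With SOX10 it gave 0.59 for ANO2 and 0.08 for ANO6. The call for ANO6 was lost with RLE scaling, with no filter and with 12 of the 18 libraries when each was left out, and that for ANO4 with no filter, with only the groups compared and when any of 5 of the 6 knockout libraries was left out.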

How the results depend on the processing

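The number of anoctamin genes called in knockout against control was 7 (6 to 7 under the other settings) and, with SOX10, 8 (7 to 8). It was 7 for SOX10 in knockout cells (7 under the other settings), 3 for SOX10 in control cells (3 throughout) and 4 for the interaction (3 to 4). For guide 2 against guide 1 it was 2, with 1 under no filter on low counts and 4 under DESeq2, and 1 to 3 with each library left out. The cause was not tested. The 9 ANO2 ratios restate the ANO2 difference and did not overlap between groups. An exact permutation test of them could thus give only its smallest possible p, set by the number of libraries. No result is drawn from that test. The log2 fold change of ANO2 with SOX10 was 5.91 to 8.41 with each library left out.

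Signs turned only for small or unmeasurable changes, none of them called in the reported fit except ANO10 in knockout against control. In knockout against control, library-size scaling gave 0.13 for ANO5, 0.15 for ANO6, 0.0057 for ANO7 and 0.01 for ANO10. ANO6 was also 0.0058 with RLE, 0.0097 with no filter, 0.02 with a filter at a mean of 1 CPM, 0.0099 with only the groups compared and 0.0059 with DESeq2. With SOX10, library-size scaling gave 0.12 for ANO7. For SOX10 in control cells, ANO10 was 0.001 with RLE, 0.0015 with library-size scaling, 0.02 with no filter, 0.0024 with the higher filter, 0.005 with only the groups compared and 0.00099 with DESeq2. With each library left out, knockout against control spanned -0.22 to 0.10 for ANO5 and -0.02 to 0.0097 for ANO6, and with SOX10 -0.09 to 0.09 for ANO7. The SOX10 effect spanned -0.03 to 0.0046 for ANO10 in knockout cells, -2.26 to 0.23 for ANO2 in control cells and -0.04 to 0.04 for ANO10 in control cells. The interaction spanned -1.50 to 0.99 for ANO2 and -0.05 to 0.03 for ANO10. Guide 2 against guide 1 spanned -0.05 to 0.09 for ANO3, -0.47 to 0.42 for ANO9 and, with SOX10, -0.0054 to 0.08 for ANO3 and -0.27 to 0.09 for ANO7.

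Same-numbered libraries did not deviate together (0 of 45 pairs with r over 0.1, highest 0.0711), so the numbers were not used as pairs. With the replicate block, 7, 8, 7, 3, 3 and 3 genes were called in the 6 comparisons in the order above. ANO4 left the interaction calls (0.31, adjusted p = 0.0508, edgeR), ANO10 joined the guide calls (-0.14, adjusted p = 0.036, edgeR), and ANO9 between guides was -0.02. Depth limits ANO2 and ANO9 in control cells, at 0 to 6 counts per library.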
